A study of Mus musculus with 9 samples.

Results

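The 10 genes of the Notch signalling pathway described here were followed in the cochlear duct of Prdm16 cGT mouse embryos, namely the ligands Jag1, Jag2, Dll1 and Dll3, the receptors Notch1, Notch2 and Notch3, and the fringe enzymes Lfng, Mfng and Rfng. They were taken by name, with earlier results of these data known, and each of the 10 symbols matched a single Ensembl gene among the 54232 genes counted. RNA was sequenced from 9 embryos at E14.5, 3 per genotype, and each library held the ducts from the 2 ears of 1 embryo. WT embryos were Prdm16 +/+, heterozygotes (Het) were Prdm16 cGT/+ and null embryos (Null) were Prdm16 cGT/cGT, where cGT is a gene trap allele of Prdm16, a transcriptional regulator. All 3 genotypes were littermates on the FVB/NJ inbred background, and the trap is carried by the whole embryo, so the tissues around the duct shared its genotype. The comparisons ask how the RNA of each gene differed when Prdm16 was trapped on a single allele or on both.

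Notch signalling passes between neighbouring cells. A ligand of the Jagged or Delta-like kind on one cell binds a Notch receptor on the next, the receptor is cut, and its inner part enters the nucleus, where it joins the DNA-binding protein RBPJ and turns on target genes of the Hes and Hey families. Fringe enzymes add a sugar to fucose residues on the receptor, which changes how well it answers Delta-like and Jagged ligands. In the cochlea, Jag1 and Notch1 are known from the prosensory domain, the strip that becomes the organ of Corti, while Dll1 and Jag2 on young hair cells keep their neighbours from taking the hair cell fate. Dll3 is an atypical ligand that acts mainly inside the cell that makes it.

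Total counts ranged from 24095322 to 30819118 per library, and levels are given as CPM, counts scaled to a common library size with TMM factors for composition. A count of 3, taken as the floor, was between 0.0968 and 0.126 CPM, which covers counting error only. Prdm16 itself stood at 184 to 225 CPM in WT, 123 to 151 in Het and 19.1 to 27.4 in Null, so each library matched its label. Markers of the duct's own regions (prosensory domain, Kölliker's organ, outer sulcus and roof) were present in every library. WT embryos 1 and 2 and Null embryo 3 stood apart in markers of tissue outside the duct. Their summed level of 6 mesenchyme markers was 411, 824 and 1261 CPM, against 28.2 to 94.7 CPM in the other 6 libraries, and that of 7 endothelial markers was 86.9, 71.2 and 50.9 CPM, against 2.61 to 6.69 CPM. By Y-linked genes and Xist, WT embryo 1, Het embryo 1 and Null embryos 1 and 2 were male.

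The 10 genes covered a wide span of levels in WT ducts. On the scale of CPM per kilobase of exon, which allows levels of different genes to be compared, Jag1 was the highest with 68.4 ± 3.01 (SD, n = 3 embryos). Notch1 (37.6 ± 2.61), Notch3 (31.0 ± 0.478) and Notch2 (20.2 ± 1.05) followed, so the receptors ranked directly below the leading ligand. Rfng came next at 14.9 ± 0.631, then Jag2 at 9.54 ± 0.965 and Lfng at 5.05 ± 1.31 CPM per kilobase. Mfng (1.84 ± 0.554), Dll1 (0.553 ± 0.314) and Dll3 (0.331 ± 0.249) were the lowest. Neighbours in this order did not overlap between WT embryos, except Dll1 and Dll3, whose ranges did. Dividing by coding length instead of exon length moved Rfng from the fifth place to the third, above Notch3 and Notch2. Lfng was seventh in WT and sixth in Het and Null, where its mean stood above that of Jag2, and the other 8 genes held the same place in all 3 genotypes. The ranges of Lfng and Jag2 overlapped in Het (7.23 to 9.58 and 6.59 to 8.35 CPM per kilobase) but not in Null. The switch of Lfng and Jag2 is seen in the plot of length-adjusted levels.

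**Figure D1:**
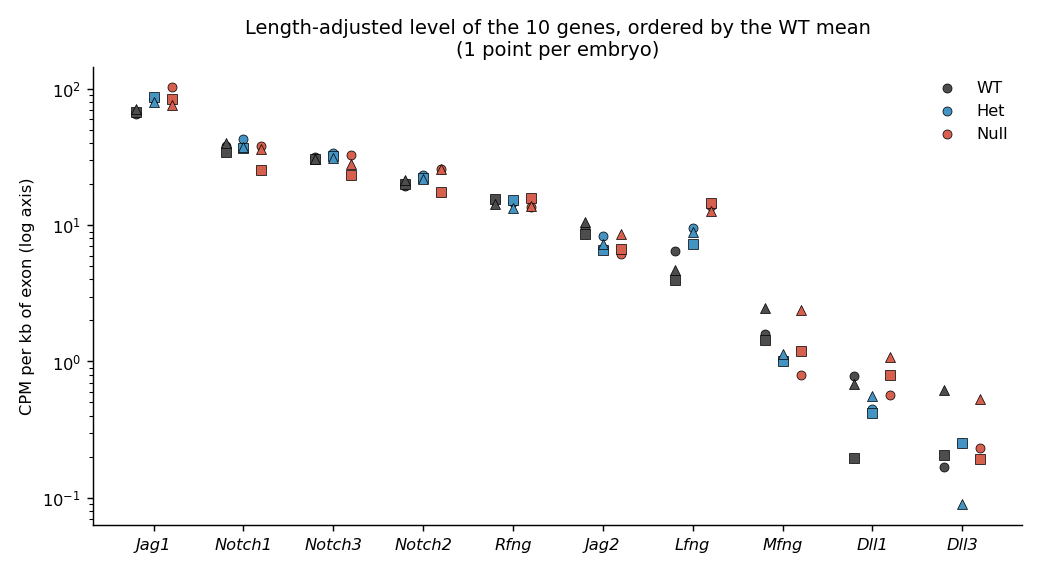
CPM per kilobase of exon on a log axis for the 10 genes, ordered by their WT mean, with 1 point per embryo, grey for WT, blue for Het and red for Null (circle, square and triangle are embryos 1, 2 and 3). Lfng lies below Jag2 in WT and above it in Null, at 5.05 and 13.7 CPM per kilobase on average, while Jag1 leads in each genotype.

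The depth behind the genes differed as much as their levels. Dll3 was read from 7 to 52 counts per library, Dll1 from 21 to 108 and Mfng from 55 to 207, while the receptors and Jag1 had at least 5478. The spread between embryos of a genotype, as a coefficient of variation, was 61.3% for Dll3 and 38.4% for Dll1, where counting error alone gives 21.5% and 12%. It was lowest for Rfng, at 6.69%. Differences in Dll1, Dll3 and Mfng are therefore known far less precisely than those of the other 7 genes.

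Between genotypes, Lfng was the single gene of the 10 that edgeR called in any comparison with all embryos kept and genes with low counts filtered out. A call needs an adjusted p below 0.05 together with a log2 fold change beyond 0.5 in either direction. Of the 10 genes, all of which passed the filter on low counts, 1 was called higher and 0 lower in Null against WT. Of the 17168 genes tested there, 0.92% were called higher and 0.786% lower. In Het against WT, 0 of the 10 were called, against 0.151% of 17269 genes. In Null against Het, 0 of the 10 were called, against 0.615% of 17067 genes. Unadjusted edgeR p-values were under 0.05 for 3, 5 and 2 of the 10 genes in these comparisons, against 12.2%, 13.1% and 11.4% of all genes tested. DESeq2 called 1, 2 and 1 of the 10, Lfng in each and Mfng in Het against WT besides. The median log2 fold change of the 10 genes was -0.073 in Null against WT, 0.0029 in Het against WT and 0.050 in Null against Het, beside medians of 0.0097, 2.94e-05 and 0.012 over all genes tested, and 4, 5 and 6 of the 10 were positive. The 3 libraries rich in mesenchyme markers were also left out, an alternative chosen after seeing the data. It leaves 1 WT embryo (WT 3), 3 Het and 2 Null embryos in one fit, so each comparison with WT then rests on that embryo, which is assumed to vary as the others do. Without them 1, 0 and 1 of the 10 were called, and several uncalled values in Null against WT moved, to 0.0091 for Dll1, -1.54 for Dll3, -0.32 for Notch1 and 0.025 for Notch2.

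Separation of the embryos without regard to a threshold was counted as well. In Null against WT, 2 of the 10 genes (Jag1 and Lfng) had all Null embryos above all WT embryos and 1 (Jag2) had all below, where 10.1% and 8.95% of all genes tested did so. In Het against WT, 3 (Jag1, Notch2 and Lfng) were fully above and 2 (Jag2 and Mfng) fully below, against 8.97% and 8.99%. In Null against Het, 2 (Dll1 and Lfng) were fully above and 0 below, against 9.06% and 9.09%. With 10 genes, each of these counts rests on single genes.

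**Figure D2:**
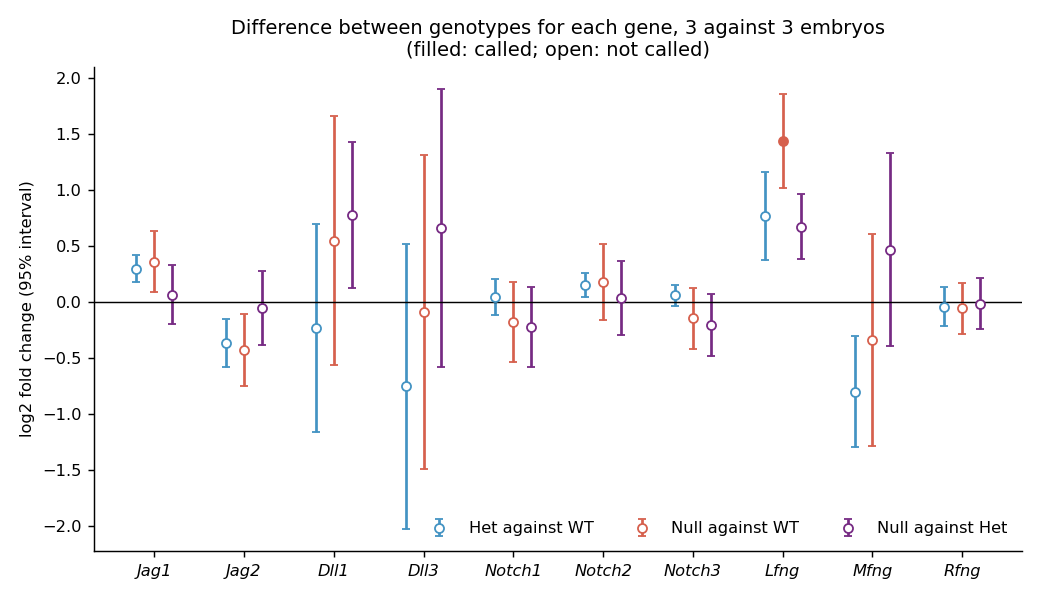
Log2 fold change of each gene with its 95% interval from edgeR in Het against WT (blue), Null against WT (red) and Null against Het (purple), 3 embryos against 3, where a filled point is called and an open one is not. Lfng in Null against WT, at 1.44, is the one filled point, and the widest intervals belong to Dll1, Dll3 and Mfng.

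Among the fringes, Lfng rose in Null ducts. Lunatic fringe, its product, is known from the sensory patches of the developing ear. Lfng (ENSMUSG00000029570, chr5:140607320-140615545 on the plus strand of mm10) stood at 16.3, 9.91 and 11.8 CPM in WT embryos 1 to 3, at 24.0, 18.1 and 22.5 CPM in Het and at 34.6, 36.5 and 31.9 CPM in Null. Every Het embryo lay above every WT embryo and every Null embryo above every Het embryo, so the 3 genotypes did not overlap. The Null mean was 272% and the Het mean 170% of the WT mean. Against WT, the log2 fold change in Null was 1.44 (SE 0.180, 95% interval 1.02 to 1.86, edgeR adjusted p = 0.00869). Het against WT gave 0.77 (SE 0.175, 95% interval 0.37 to 1.16, edgeR adjusted p = 0.0917) and Null against Het gave 0.67 (SE 0.126, 95% interval 0.39 to 0.96, edgeR adjusted p = 0.0704), and neither passed the threshold. Of the 12 alternatives other than leaving out single embryos, 4 called Lfng in Het against WT and 5 in Null against Het. Het against WT and Null against WT share the same WT embryos, so they are not independent views of Lfng.

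Without WT embryo 2 the call of Lfng in Null was lost, with a log2 fold change of 1.30 and an edgeR adjusted p of 0.0517, and over the fits that left out each embryo in turn the adjusted p ranged from 0.00883 to 0.0517. Without the 3 libraries rich in mesenchyme markers, which sets 2 Null embryos against WT embryo 3 alone, the log2 fold change was 1.60 (edgeR adjusted p = 0.00426). The summed markers of each duct region did not overlap between WT and Null. The summed level of 6 prosensory markers was 515 to 576 CPM in WT, 613 to 660 in Het and 625 to 763 in Null, and that of 7 markers of Kölliker's organ, the epithelium medial to the sensory strip, was 3419 to 4337, 3147 to 3944 and 1701 to 1944 CPM. That of 5 roof markers was 7550 to 8819, 9121 to 9545 and 10456 to 13856 CPM, nearly all of it from Oc90 (7812 CPM on average in WT), and that of 4 outer sulcus markers was 1052 to 1220, 1113 to 1339 and 1281 to 1776 CPM. Tecta gave most of the Kölliker's organ sum (2880 CPM on average in WT), and Cdkn1b the largest part of the prosensory sum (246 CPM). In Null against WT, edgeR called 2 of the 6 prosensory markers higher (Fgf20 and Cdkn1b, named after their values were seen) and 7 of the 7 markers of Kölliker's organ lower, and 0 of the 5 roof and 0 of the 4 outer sulcus markers, beside the 0.92% and 0.786% of all genes called higher and lower. Hey2, a prosensory marker that was not called, is also among the Notch targets described further on. None of these markers was at 0, and their part in the Lfng difference was not tested. In bulk RNA, more or fewer cells of a type and more or less RNA per cell cannot be told apart.

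The Lfng promoter is shown because Lfng was the gene called and because it is the one window among these genes that holds the core letters bound by RBPJ. The bases from 250 to 51 before its RefSeq start (GRCm38.p6, chr5:140607091-140607290, plus strand) read, 5′ to 3′ with each match in capitals, as follows.
Lfng: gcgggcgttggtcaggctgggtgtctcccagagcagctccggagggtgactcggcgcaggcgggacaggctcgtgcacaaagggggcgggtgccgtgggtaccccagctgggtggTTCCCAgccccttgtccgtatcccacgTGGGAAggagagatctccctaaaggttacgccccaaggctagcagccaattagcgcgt

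The letters searched were TGGGAA on either strand, in windows from 250 bases before to 50 after each RefSeq start. In Lfng the first match, on the minus strand, begins at position -135 from the start and the second, on the plus strand, at -108. The longer form GTGGGAA, which contains the shorter one, matched only the second. TGGGAA was present in 25.6% of the 32851 mouse promoter windows of this length, and GTGGGAA in 6.38%. A window was given for 9 of the 10 genes, with 2 windows for Dll1, and none but that of Lfng held TGGGAA. These matches describe the sequence and do not show that RBPJ binds there.

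Manic fringe (Mfng, ENSMUSG00000018169, chr15:78755882-78773475, minus strand) had another pattern. It stood at 4.52, 4.11 and 7.02 CPM in WT, at 2.93, 2.85 and 3.22 CPM in Het and at 2.27, 3.39 and 6.78 CPM in Null. All Het embryos lay below all WT embryos, but Null embryos overlapped both. Het against WT gave a log2 fold change of -0.80 (SE 0.222, 95% interval -1.30 to -0.31, edgeR adjusted p = 0.147) and Null against WT one of -0.34 (SE 0.408, 95% interval -1.28 to 0.61, edgeR adjusted p = 0.789), and neither was called. The latter ranged from -0.88 (without Null embryo 3) to -0.047 (without Null embryo 1) as each embryo was left out. Without the 3 libraries rich in mesenchyme markers it was -1.29 (edgeR adjusted p = 0.0876), set against WT embryo 3 alone, the highest of the WT embryos. WT embryo 3 and Null embryo 3, with the highest Mfng, also had the highest summed level of 6 hair cell markers, 185 and 227 CPM against 113 to 154 CPM in the other libraries, and the part of hair cells in the Mfng values was not tested. Most of both sums came from Myo6, at 127 and 139 CPM.

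Radical fringe (Rfng, ENSMUSG00000025158, chr11:120780746-120784207, minus strand) showed the narrowest range of the 10 genes. It stood at 37.4, 38.7 and 35.6 CPM in WT, at 36.7, 38.5 and 33.4 CPM in Het and at 33.9, 39.2 and 34.5 CPM in Null, so that the genotypes overlapped throughout. Null against WT gave a log2 fold change of -0.06 (SE 0.097, edgeR adjusted p = 0.851), with a 95% interval of -0.28 to 0.17.

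As a share of the fringe RNA, Lfng separated the genotypes without overlap. Lfng held 28.1%, 18.9% and 21.9% of the summed length-adjusted fringe level in WT embryos, 37.8%, 30.5% and 38.2% in Het and 48.9%, 46.3% and 44.0% in Null. Rfng held 68.6 ± 4.91% in WT, 60.1 ± 4.46% in Het and 48.7 ± 1.16% in Null (SD, n = 3). The summed level of the 3 fringes was 20.9 to 23.1 CPM per kilobase in WT, 23.5 to 25.3 in Het and 28.2 to 31.5 in Null, with no overlap between genotypes. For the Lfng share and the fringe sum, each pair of genotypes gave a two-sided exact permutation p of 0.1, the smallest that 3 embryos against 3 allow, and 0.205 after Benjamini-Hochberg adjustment over the 39 shares and sums tested.

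**Figure D3:**
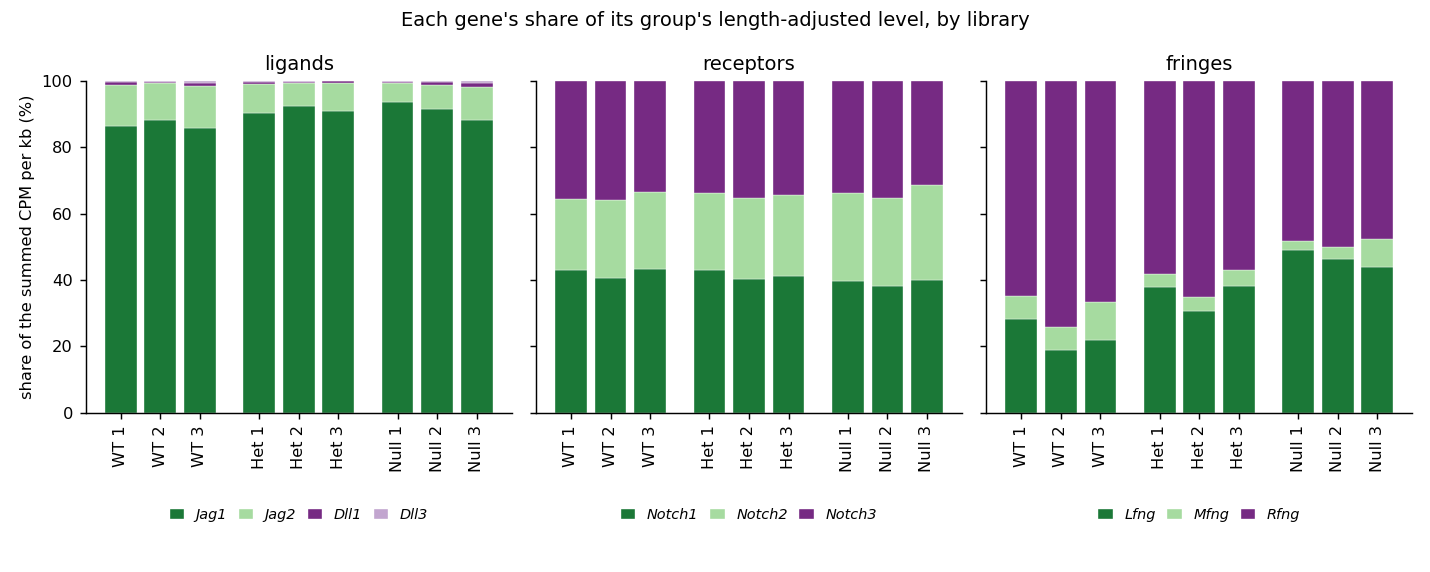
Stacked bars give each gene's share (%) of the summed CPM per kilobase of its group in the 9 libraries, for ligands, receptors and fringes. The mean Lfng share is lowest in WT (23.0%) and highest in Null (46.4%), and the Jag2 share is larger in each WT library than in any Het or Null library.

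Of the ligands, Jag1 was the most abundant in every library, and its level in Het and Null ducts lay above that in WT without passing the test. Jag1 (ENSMUSG00000027276, chr2:137081456-137116644, minus strand) encodes a Jagged ligand. It stood at 385, 392 and 418 CPM in WT, at 492, 514 and 465 CPM in Het and at 599, 494 and 446 CPM in Null. Every Het and every Null embryo exceeded every WT embryo, and Het and Null overlapped. Jag1 had a log2 fold change of 0.36 in Null against WT (SE 0.117, 95% interval 0.09 to 0.63, edgeR adjusted p = 0.247) and 0.30 in Het against WT (SE 0.053, 95% interval 0.18 to 0.42, edgeR adjusted p = 0.0588). In Het against WT the adjusted p of Jag1 fell below 0.05 in 5 of 12 alternatives and not in the rest. Over all 12 the log2 fold change was 0.23 to 0.30, short of 0.5. Null against Het gave 0.06 (95% interval -0.20 to 0.33, edgeR adjusted p = 0.843).

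Jag2 (ENSMUSG00000002799, chr12:112907819-112929776, minus strand), the Jagged ligand of young hair cells, lay on the other side of WT. It stood at 66.1, 59.9 and 73.3 CPM in WT, at 58.1, 45.9 and 50.8 CPM in Het and at 42.7, 46.5 and 59.7 CPM in Null. All Het and Null embryos were below all WT embryos, although the highest Null and the lowest WT value differed by less than 1 CPM. Jag2 had a log2 fold change of -0.43 in Null against WT (SE 0.139, 95% interval -0.75 to -0.10, edgeR adjusted p = 0.247) and -0.37 in Het against WT (SE 0.096, 95% interval -0.58 to -0.15, edgeR adjusted p = 0.126), neither of which passed. Without Null embryo 3, Jag2 was called lower in Null, with a log2 fold change of -0.58 and an edgeR adjusted p of 0.0448, within a range of 0.0448 to 0.569 over the fits that left out each embryo. Without the 3 libraries rich in mesenchyme markers, which include that embryo, the log2 fold change in Null was -0.71 (edgeR adjusted p = 0.0738), set against WT embryo 3 alone, which had the highest Jag2 of the 9 libraries. In each genotype the embryo with the highest Jag2 (WT 3, Het 1 and Null 3) was also the one with the highest summed hair cell markers, at 185, 146 and 227 CPM, and the part of hair cells in the Jag2 values was not tested. Myo6 gave most of these sums, at 127, 102 and 139 CPM.

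The Delta-like ligands were near the lower end of what these libraries can measure. Dll1 (ENSMUSG00000014773, chr17:15367354-15376872, minus strand), the Delta-like ligand of young hair cells, stood at 3.29, 0.823 and 2.88 CPM in WT, at 1.89, 1.76 and 2.34 CPM in Het and at 2.39, 3.36 and 4.52 CPM in Null. All Null embryos were above all Het embryos, by a log2 fold change of 0.78 (SE 0.284, 95% interval 0.12 to 1.43, edgeR adjusted p = 0.364), while WT spanned both. Null against WT gave 0.55 (95% interval -0.57 to 1.66, edgeR adjusted p = 0.711), and 0.15 without WT embryo 2 to 0.88 without WT embryo 1 over the fits that left out each embryo. Dll1 shares 867 exon bases with the antisense transcript A930024N18Rik, which stood at 0.0740 to 0.237 CPM in WT and 0.536 to 0.645 CPM in Null, and whether the counting used strand is not given in the sources used here, so reads of the pair may be mixed.

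Dll3 (ENSMUSG00000003436, chr7:28293553-28302238, minus strand) stood at 0.481, 0.588 and 1.76 CPM in WT, at 0.722, 0.720 and 0.256 CPM in Het and at 0.660, 0.548 and 1.51 CPM in Null. The highest values were those of WT embryo 3 and Null embryo 3, as for Mfng and the hair cell markers, and the genotypes overlapped. Its log2 fold change was -0.09 in Null against WT with a 95% interval of -1.49 to 1.32 (edgeR adjusted p = 0.968), so that neither a doubling nor a halving of Dll3 lay outside it.

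As shares of the summed ligand level, Jag1 held 86.8 ± 1.24% in WT, 91.2 ± 1.06% in Het and 91.2 ± 2.74% in Null (SD, n = 3). Jag2 held 12.1 ± 0.717%, 8.05 ± 1.04% and 7.57 ± 2.17%. The WT shares of both ligands were separated from those of Het and of Null, and Het and Null overlapped (two-sided exact permutation p = 0.1 for each comparison with WT, the smallest possible). Dll1 and Dll3 held 0.698% and 0.410% of the ligand level in WT. The ligand sum was 76.4 to 83.6 CPM per kilobase in WT, 87.8 to 95.5 in Het and 86.7 to 110 in Null, and thus followed Jag1.

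**Figure D4:**
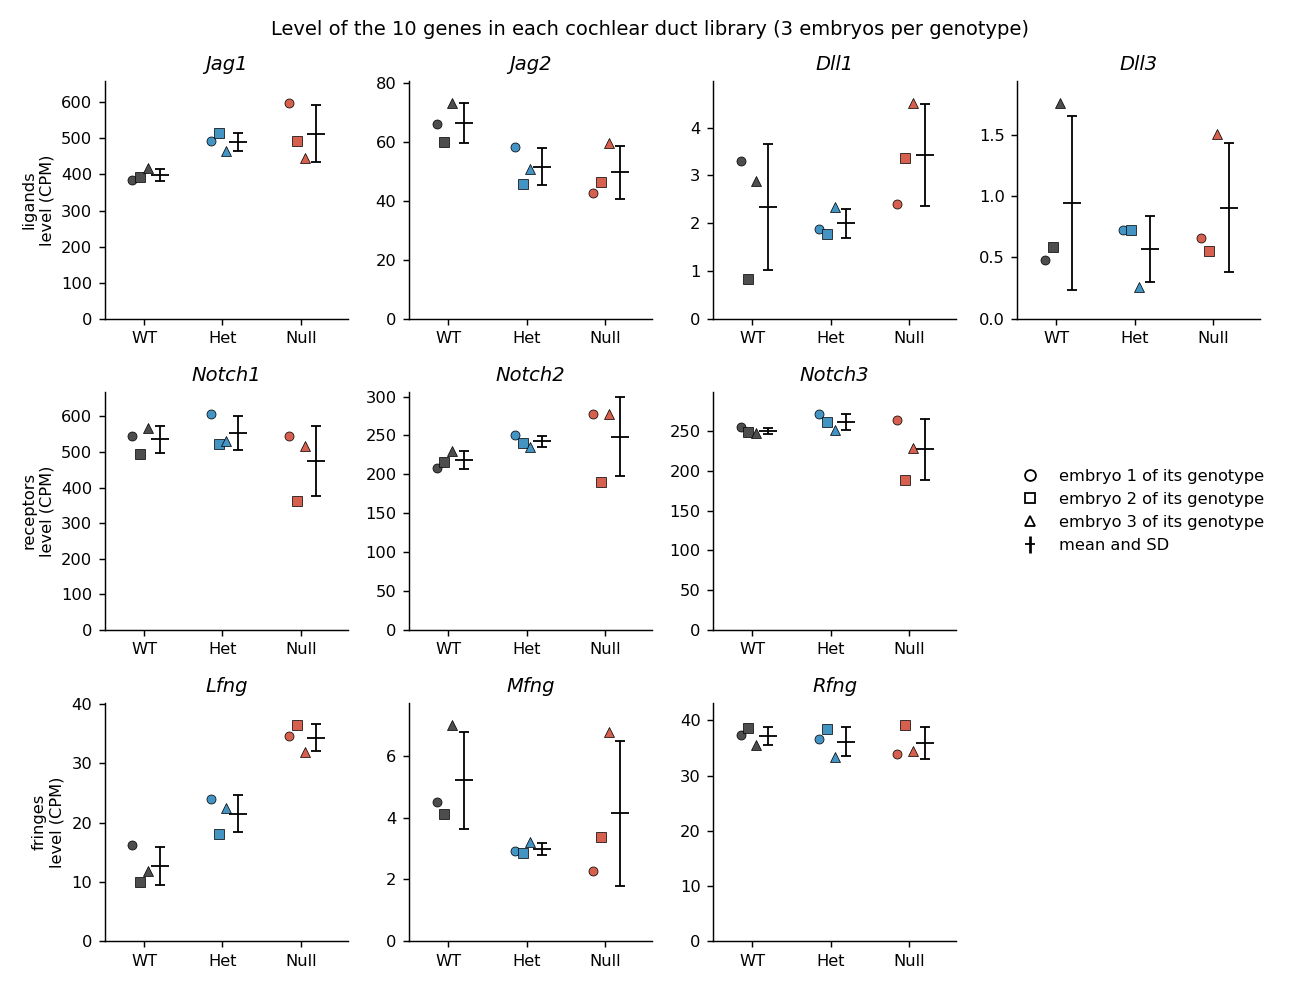
CPM of each of the 10 genes in the 3 embryos of each genotype (circle, square and triangle are embryos 1, 2 and 3), with the mean and SD beside them, in rows for ligands, receptors and fringes. Lfng separates all genotypes (9.91 to 16.3, 18.1 to 24.0 and 31.9 to 36.5 CPM), and the square of Null embryo 2 is the lowest point of all 3 receptors.

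The receptors were abundant, and none was called in any comparison. Notch1 (ENSMUSG00000026923, chr2:26457903-26516663, minus strand) stood at 544, 495 and 568 CPM in WT, at 607, 522 and 531 CPM in Het and at 545, 361 and 516 CPM in Null. Notch3 (ENSMUSG00000038146, chr17:32120820-32166852, minus strand), a receptor also known from mural cells of vessels, stood at 255, 249 and 248 CPM in WT, at 272, 262 and 252 CPM in Het and at 265, 188 and 229 CPM in Null. For both, Null embryo 2 was the lowest of the 9 libraries and the other Null embryos lay at 516 to 545 CPM for Notch1 and 229 to 265 CPM for Notch3. The log2 fold change in Null against WT was -0.18 for Notch1 (SE 0.153, 95% interval -0.54 to 0.18, edgeR adjusted p = 0.702). For Notch3 it was -0.15 (SE 0.119, 95% interval -0.42 to 0.13, edgeR adjusted p = 0.686). Without Null embryo 2 these became -0.011 and -0.021, so the size of both differences rested on that embryo.

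Notch2 (ENSMUSG00000027878, chr3:98013527-98150361, plus strand) stood at 208, 216 and 230 CPM in WT, at 251, 240 and 236 CPM in Het and at 278, 190 and 278 CPM in Null. All Het embryos lay above all WT embryos, and so did Null embryos 1 and 3, while Null embryo 2 was the lowest of the 9. The log2 fold change was 0.15 in Het against WT (SE 0.048, 95% interval 0.04 to 0.26, edgeR adjusted p = 0.208) and 0.18 in Null against WT (SE 0.147, 95% interval -0.16 to 0.52, edgeR adjusted p = 0.683). The latter was 0.095 without Null embryo 1 and 0.097 without Null embryo 3. Without Null embryo 2 it was 0.35, with an edgeR adjusted p of 0.0646, which is the lowest of a range of 0.0646 to 0.893 over the fits that left out each embryo. Exons of the receptors overlap little-read transcripts, by 541 bases in Notch2 (Gm42820, same strand), by 488 bases in Notch3 (Gm17276, antisense) and by 1068 bases in Notch1 (0610009E02Rik, antisense), none of which exceeded 1.80 CPM.

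The low receptor level of Null embryo 2 was shared by the 3 genes, so their proportions were steadier than their levels. Null embryo 2 also had the highest summed level of roof markers, most of it Oc90, at 13856 CPM against 7550 to 11038 CPM in the others, whose part in its receptor levels was not tested. Notch2 held 21.7%, 23.4% and 23.2% of the summed receptor level in WT embryos, 23.3%, 24.4% and 24.2% in Het and 26.6%, 26.5% and 28.5% in Null. Every Null embryo thus had a larger Notch2 share than every WT and every Het embryo, Null embryo 2 included. Notch1 held 42.3 ± 1.47% in WT, 41.4 ± 1.35% in Het and 39.3 ± 0.934% in Null (SD, n = 3), and its Null shares lay below all others, with a gap to Het of less than 0.1 percentage points. Against WT and against Het the two-sided exact permutation p was 0.1 for both genes, the smallest possible, and 0.205 after Benjamini-Hochberg adjustment over the 39 shares and sums. Notch3 held 34.9 ± 1.35%, 34.6 ± 0.809% and 33.4 ± 1.92%, and its genotypes overlapped. Null embryo 3 had 241 CPM of summed mural markers against at most 102 CPM in the others, of which Cspg4 alone gave 172 CPM, and its Notch3 level lay between those of the other Null embryos. None of the other mural markers was highest in Null embryo 3, and Rgs5 was lowest there (27.2 CPM). The part of mural cells in the Notch3 values was not tested.

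Genes whose levels ran most alike to Lfng were sought among 17796 genes by Pearson's r of log2 CPM over the 9 libraries, in which the genotypes differ, so that any gene ordered WT, Het, Null scores high. The 5 highest were Fgf16 (r = 0.985), Sgk1 (0.984), Fgf14 (0.978), Gm37652 (0.974) and Tent5c (0.971). Fgf16 and Fgf14 belong to the fibroblast growth factor family, Sgk1 is a kinase induced by serum and steroid hormones, and Tent5c is a poly(A) polymerase. Fgf16 stood at 2.88 ± 0.462 CPM in WT, 6.22 ± 0.819 in Het and 10.7 ± 1.53 in Null (SD, n = 3), and Sgk1 at 45.0 ± 15.2, 81.4 ± 14.1 and 119 ± 16.0 CPM. Tent5c had the narrower range, at 42.3 ± 1.54, 53.3 ± 3.31 and 62.0 ± 3.67 CPM. After each genotype's mean was taken out, r with Lfng was 0.897 for Fgf16, 0.937 for Sgk1, 0.868 for Fgf14, 0.938 for Gm37652 and 0.718 for Tent5c. The 5 genes were picked from the same 9 libraries, so these values are not a separate check. Gm37652 was at or near the floor, from 0.0392 to 0.544 CPM.

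**Figure D5:**
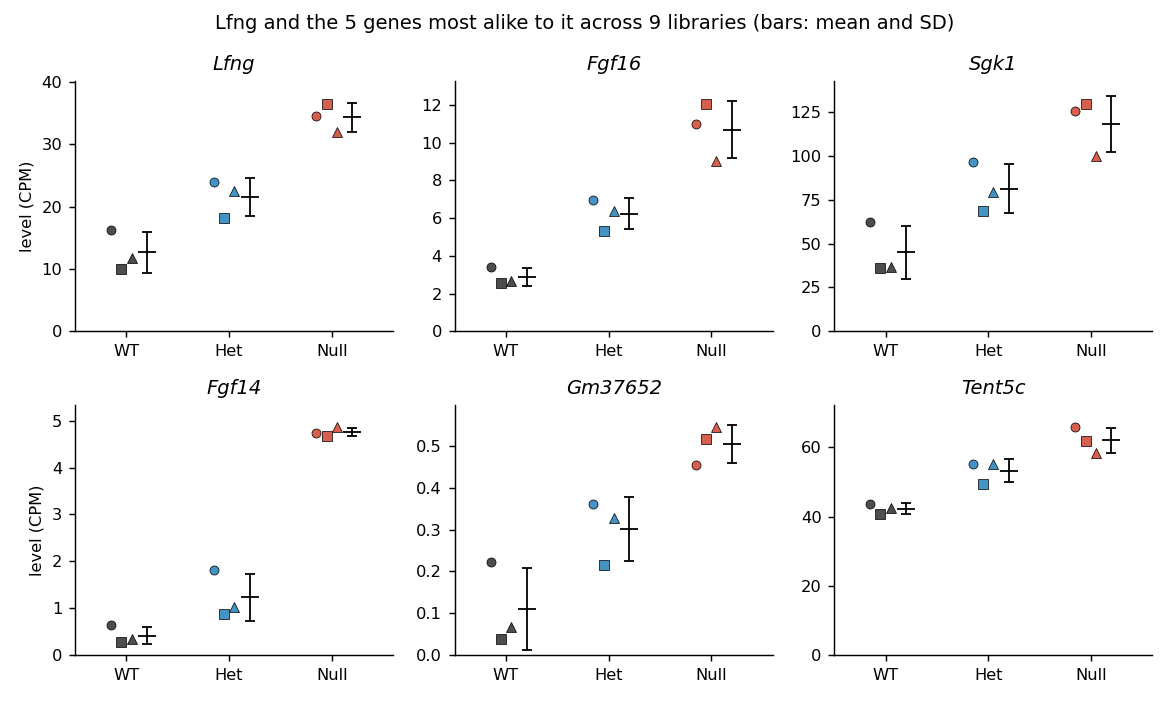
CPM of Lfng and of the 5 genes with the highest correlation with it, per embryo (circle, square and triangle are embryos 1, 2 and 3) with mean and SD. In Lfng, Fgf16, Sgk1, Fgf14 and Tent5c the 3 genotypes do not overlap, and WT embryo 1 is the highest of the WT embryos in all 6 panels.

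For Jag1 the same ranking gave Zfp217 (r = 0.955), a zinc finger protein, Gpc2 (0.952), a glypican, Plekhg3 (0.947) and Lemd1 (0.945) among its highest. In these 4 genes, as in Jag1, all Het and Null embryos lay above WT and Het overlapped Null. Lemd1 stood at 26.8 ± 4.47 CPM in WT, 41.1 ± 4.34 in Het and 48.8 ± 9.43 in Null (SD, n = 3). None of the 4 was shared with the list for Lfng, and r between Lfng and Jag1 was 0.707.

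The rest of the pathway was described by 43 genes in 6 lists. They cover further ligands and receptors, enzymes that add other sugars to the receptor, ubiquitin ligases and trafficking proteins, the proteases that cut the receptor, the nuclear complex, and direct targets. In Null against WT, 0 of the 43 were called by edgeR, where 0.92% and 0.786% of all genes tested were called higher and lower, 1 was called by limma-voom and 2 by DESeq2. An unadjusted p under 0.05 was found for 5 of the 43, beside 12.2% of all genes, 16 had positive and 27 negative log2 fold changes, and their median was -0.027 beside 0.0097 over all genes tested. In Null against Het, 0 of the 42 tested were called by edgeR, beside 0.615% of all genes, and 1 by DESeq2. An unadjusted p under 0.05 was found for 7, beside 11.4% of all genes, with 22 positive and a median of 0.014.

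In Het against WT, 1 of the 43 was called lower and 0 higher, where 0.151% of all genes tested were called in either direction, again with 16 positive and 27 negative, and 13 had an unadjusted p under 0.05, where 13.1% of all genes tested did. It was Gxylt2, which encodes a xylosyltransferase that extends O-glucose on Notch receptors. Gxylt2 stood at 38.5, 42.7 and 33.8 CPM in WT, at 20.8, 19.8 and 22.8 CPM in Het and at 18.7, 11.5 and 39.6 CPM in Null. Its log2 fold change in Het was -0.86 (SE 0.101, edgeR adjusted p = 0.0171), while Null against WT gave -0.73 (SE 0.390, edgeR adjusted p = 0.516). The latter rested on single embryos, since it was called without Null embryo 3 (-1.35, edgeR adjusted p = 0.0177) and was -0.39 without Null embryo 2. The call in Het was lost without WT embryo 2 and without each of the Het embryos in turn, with edgeR adjusted p-values of up to 0.119. The libraries with the highest Gxylt2, WT embryos 1 and 2 and Null embryo 3, were those rich in mesenchyme and endothelial markers. Without those 3 libraries, with WT embryo 3 as the one WT embryo, the log2 fold change in Het was -0.68 and the edgeR adjusted p 0.896.

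Among the 6 direct targets, 0 were called by edgeR in any comparison with all embryos kept, no covariate and low counts filtered out. In Null against WT, 4 had positive and 2 negative log2 fold changes, with a median of 0.26. Hes1, a transcriptional repressor and a common readout of Notch activity, stood at 18.0, 20.5 and 23.4 CPM in WT, at 26.7, 24.0 and 22.0 CPM in Het and at 27.9, 28.2 and 36.5 CPM in Null. All Null embryos were above all WT and all Het embryos, and Het overlapped WT. The log2 fold change was 0.58 in Null against WT (SE 0.151, 95% interval 0.23 to 0.93, edgeR adjusted p = 0.145), 0.23 in Het against WT (edgeR adjusted p = 0.429) and 0.35 in Null against Het (edgeR adjusted p = 0.397). DESeq2 called Hes1 higher in Null against WT, with a log2 fold change of 0.58 and an adjusted p of 0.0141, within a range of 0.0141 to 0.627 over the alternatives other than leaving out 1 embryo at a time. With the sex covariate edgeR called it as well, at 0.69 (adjusted p = 0.0443). Unadjusted edgeR p-values were under 0.05 for 4 of the 6 targets in that comparison, beside 12.2% of all genes tested, with positive log2 fold changes for Hes1 (0.58), Hey2 (0.34) and Heyl (0.45) and a negative one for Hes5 (-3.48), which was near the floor. Against WT embryo 3 alone, the highest of the WT embryos, and without the 3 libraries rich in mesenchyme markers, Hes1 had a log2 fold change of 0.27 in Null (edgeR adjusted p = 0.627).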

How the data were processed

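The files hold the counts the authors deposited, whole numbers of reads per Ensembl gene without normalization. The submitters' processing notes name cutadapt 1.13, STAR, HTSeq 0.6.1p1, DESeq2 and mm10, and the methods describe TruSeq mRNA libraries read as 50-base single reads. Strand setting and annotation release are not given in the sources used here. Total counts of 24095322 to 30819118 per library set the precision. Names, positions and exon lengths came from GENCODE M21 on mm10, which held 54165 of the 54232 genes.

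Genotypes were compared in pairs, 6 libraries at a time, by the quasi-likelihood test of edgeR 4.0.16 (R 4.3.3), after TMM scaling and filterByExpr with a minimum count of 10, with Benjamini-Hochberg adjustment over all genes. The procedure was tried on simulated counts for Null against WT that vary less than these data, so its errors here are not known from that. P-values measure the spread between littermates. Levels used TMM factors over 9 libraries, and log2 CPM a prior count of 2. Shares used exact permutation tests. DESeq2 1.42.0 and limma 3.58.1 were alternatives, with other scalings, filters, covariates and left-out embryos. Named genes are the 10 members, every other pathway gene that edgeR called, Hes1, the 5 genes most alike to Lfng and to Jag1, of which 1 is not reported here, and Prdm16. Other genes were named after their values were seen. The members and lists were chosen with earlier results of these data known. Replicate numbers do not pair the embryos.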

Additional observations from a re-analysis of the deposited data

How the results depend on the processing

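Each genotype had 3 embryos, and the spread between embryos exceeded counting error for each of the 10 genes. The 30 log2 fold changes of the 10 genes were refitted 533 times in all, and 489 of these refits kept direction and side of the threshold. Lfng in Null against WT was called in all 12 alternatives that did not leave out a single embryo, with log2 fold changes of 1.02 to 1.60.

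The number of the 10 genes called was 1 in Null against WT and went from 0 to 2 as each embryo was left out. In Het against WT it was 0, and it became 2 with DESeq2 and 2 with no filter on low counts (Lfng and Mfng in both), 1 with the sex covariate (Lfng), and 0 to 1 as each embryo was left out. In Null against Het it was 0, and it became 1 (Lfng) with DESeq2, with DESeq2 and a prior, with no filter, with the mesenchyme covariate and without the 3 libraries rich in mesenchyme markers, and 0 to 1 as each embryo was left out. Of the other pathway genes, 0 were called in Null against WT, and this became 2 with DESeq2, 1 with limma-voom, 1 with the sex covariate and 0 to 2 as each embryo was left out. For Het against WT the count was 1, which became 3 with DESeq2, 5 with no filter, 0 with all 9 libraries in one fit, with the mesenchyme covariate or without the 3 libraries, and 0 to 3 as each embryo was left out. In Null against Het the count of 0 became 1 with DESeq2 and 1 with no filter. The causes were not tested. Dividing by coding length kept 7 of the 10 genes at their place in the WT order. Shares depend on the length used: with the longest transcript or no division by length, 31 values moved beyond 1 SD and 29 did not, and the Notch1 share in WT became 52.0% and 53.3%.

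The replicate number did not pair the embryos: deviations from the genotype means correlated by -0.284 to 0.202 between embryos of a number, with a mean of -0.0068. With the replicate number as a block, 1 gene (Lfng, log2 fold change 0.78, edgeR adjusted p = 0.0165) was called in Het against WT, and Lfng remained called in Null against WT. The block turned Dll3 in Null against WT to 0.016.

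Several log2 fold changes that were not called changed sign. They include larger ones, Dll3 in Het against WT (-0.75 with all embryos) and Mfng in Null against Het (0.47). In Null against WT, Dll3 was 0.33 with the sex covariate and -0.66 to 0.75 with embryos left out, and Rfng was 0.047 without the 3 libraries. In Het against WT, Notch1 and Rfng were -0.14 and 0.059 with the mesenchyme covariate and -0.037 and 0.026 without the 3 libraries. As embryos were left out there, Dll1 ranged from -0.63 to 0.094, Dll3 from -1.07 to 0.079, Notch1 from -0.024 to 0.092 and Rfng from -0.089 to 0.015. In Null against Het, Notch2 and Rfng were -0.028 and 0.00064 with the mesenchyme covariate, and Notch2, Mfng and Rfng were -0.048, -0.069 and 0.021 without the 3 libraries. As embryos were left out there, Jag1 ranged from -0.059 to 0.16, Jag2 from -0.21 to 0.043, Notch2 from -0.052 to 0.20, Mfng from -0.076 to 0.76 and Rfng from -0.079 to 0.035. None of these was called in the comparison or under the alternative that turned it.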

Other observations

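Other genes of the pathway lists, named here after their values were seen, stood high in single libraries. Dll4, a ligand of vessel cells, stood at 2.92, 3.14 and 2.39 CPM in WT embryos 1 and 2 and Null embryo 3, the libraries with 50.9 to 86.9 CPM of summed endothelial markers, and at 0.226 to 0.712 CPM in the other 6 libraries. Dlk1, a non-canonical ligand, stood at 155 CPM in Null embryo 3 and at 6.56 to 12.5 CPM in the other 8 libraries, WT embryos 1 and 2 included. The part of vessel tissue in the Dll4 values was not tested.

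Hes5, a target of Notch in supporting cells, stood at 0.666, 0.431 and 0.678 CPM in WT and at 0, 0.129 and 0 CPM in Null, close to the floor of a library (edgeR adjusted p = 0.121). In Het it stood at 0.682, 0 and 0.292 CPM, and overlapped WT.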
